A study of Mus musculus with 22 samples.

Results

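The microRNAs (miRNAs) mmu-miR-122, mmu-miR-192 and mmu-miR-194, which are known as miRNAs of the liver, were followed through mouse fallopian tubes, metastatic tumors and plasma of a model of fallopian tube cancer. They are defined by their names, and they are 3 of the 566 mouse miRNAs on a NanoString panel of 626 probes. The remaining 60 probes cover controls, housekeeping mRNAs and miRNAs that are not from mouse. In this assay a tag is ligated to each miRNA, the tagged miRNA is bound by a fluorescent barcode, and the barcodes are counted without amplification. The study asked which miRNAs change with tumor development and can also be followed in the circulation.

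The 22 samples were 5 control fallopian tubes (CT), 5 doxycycline-induced fallopian tubes (FT), 5 metastatic tumors (M), plasma of 3 control mice (CS2 to CS4) and plasma of 4 mice with tumors (TS1 to TS4). All mice carried conditional alleles, of Brca1 or Brca2 among others, which a doxycycline-inducible Cre under Pax8, a gene of the secretory cells of the tube, recombines. The uninduced CT carried the alleles unrecombined. CT1 and CT3 were Brca1 fl/fl, CT2 was Brca1 fl/+, CT4 was Brca2 fl/fl and CT5 was Brca2 fl/+. FT1, FT3 and FT5 were Brca2 -/+, FT2 was Brca1 -/- and FT4 was Brca2 -/-. M1 and M3 were Brca2 -/-, M4 was Brca2 -/+, and M2 and M6 were Brca1 -/+. M6 was an ovarian tumor and the other M were peritoneal. The plasma samples CS2, CS3 and CS4 came from the mice of CT2, CT3 and CT4, and TS1, TS2, TS3 and TS4 from those of FT2, FT3, FT4 and FT5. The ages of the mice are not given in the sources used here. The labels of TS name serum as their source and plasma as their tissue, and plasma is used here. Which M shared a mouse with an FT is not named, and M5 and CS1 were not analysed here.

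Hepatocytes make miR-122 in very large amounts, and it is the most abundant miRNA of the liver, where it takes part in lipid metabolism. Dying or damaged hepatocytes release it into the blood, so plasma miR-122 is widely used as a sign of liver injury. miR-192 and miR-194 are made from shared primary transcripts and are abundant in the epithelium of the gut and in kidney as well as in liver. A miRNA recognizes its target mRNAs mainly through its seed, bases 2 to 8 from the 5′ end.

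The mature sequences are printed to show that miR-192 and miR-194 differ in their seeds, and that miR-192 has a near copy in miR-215. Of the 3 members, 2 were matched to RefSeq (GRCm38.p6). The names on the panel carry no arm, and the 5p arm is shown, with the seed in capitals.

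miR-192-5p: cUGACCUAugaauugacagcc
miR-194-5p: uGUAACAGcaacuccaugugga
miR-215-5p: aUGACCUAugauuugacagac

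miR-192-5p lies on chromosome 19, at chr19:6264857-6264877 on the plus strand. miR-194-5p is encoded by a pair of genes with identical mature sequences, Mir194-2 at chr19:6264658-6264679 and Mir194-1 at chr1:185313325-185313346, both on the plus strand. The hairpin of Mir194-2 ends 115 bases before that of Mir192 begins. Mir194-1 stands in the same way 195 bases before Mir215, within the span of the protein-coding gene Iars2. miR-215-5p, at chr1:185313610-185313630, has the seed of miR-192-5p and differs from it by C1A, A12U and C20A, counted from the 5′ end with the base of miR-192-5p first. Among 1679 mature names in the RefSeq table, the seed of miR-192-5p was found in 2 and that of miR-194-5p in 1. Counts of the miR-194 probe cannot be assigned to either gene, and whether miR-215 binds the miR-192 probe was not tested.

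A tissue sample held 70164 to 598321 counts on mouse miRNAs, and a plasma sample 18350 to 269005. A miRNA was called detected in a sample when its count was above the mean plus 2 SD of the 8 negative hybridization controls of that sample, a level of 18.3 to 67.7 counts. In tissue 94 to 208 miRNAs were detected in a sample, and in plasma 52 to 128. Input was 100 ng of RNA from tissue and 10 ng from plasma. To obtain normalized counts, the 100 highest miRNA counts of each tissue sample and the 30 highest of each plasma sample were averaged as a geometric mean, and counts were divided by it and multiplied by its average over tissue or over plasma. Tissue and plasma were scaled apart, so between them only shares of all mouse miRNA counts are compared. Group differences are log2 fold changes from edgeR (quasi-likelihood test), with p-values adjusted over all 566 miRNAs (Benjamini-Hochberg) and a threshold of 0.05.

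In plasma, miR-122 was the leading miRNA. It reached counts of 9022, 4773 and 89368 in CS2 to CS4 and of 26245, 92955, 43728 and 154979 in TS1 to TS4. It made up 24.6%, 26.0% and 41.7% of all miRNA counts in CS2, CS3 and CS4. It made up 24.7%, 54.2%, 46.3% and 57.6% in TS1 to TS4. TS2, TS3 and TS4 were above every control plasma sample and TS1 lay within their range. The widest of the 95% Wilson intervals of these shares ran from 25.4% to 26.7%, in CS3, and such intervals cover counting error only. miR-122 ranked 1 among the 566 miRNAs in 5 of the 7 plasma samples and 2 in CS2 and TS1, where miR-451, a miRNA of red blood cells, ranked above it.

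**Figure D1:**
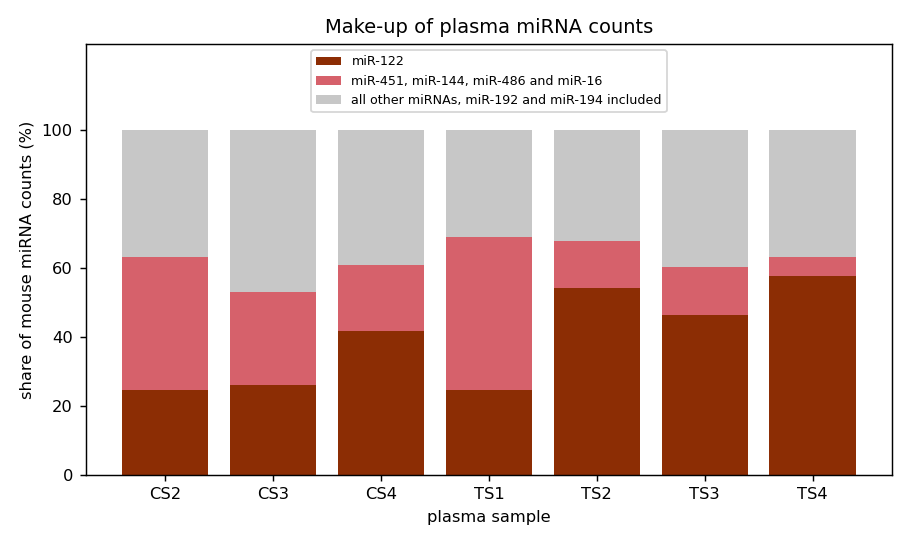
Share of mouse miRNA counts (%, vertical axis) in each plasma sample (horizontal axis), split into miR-122, the summed erythrocyte miRNAs miR-451, miR-144, miR-486 and miR-16, and all other miRNAs. The miR-122 part reaches 57.6% in TS4 and is smallest, at 24.6% and 24.7%, in CS2 and TS1, the samples with the largest erythrocyte parts.

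miR-192 and miR-194 were also present in plasma, at far lower counts. miR-192 had 118, 47 and 851 counts in CS2 to CS4 and 126, 665, 279 and 764 in TS1 to TS4, all above the detection level. It made up 0.256% to 0.397% of the miRNA counts in CS and 0.118% to 0.387% in TS. miR-194 had 91, 37 and 1177 counts in CS2 to CS4 and 39, 398, 28 and 791 in TS1 to TS4. It was detected in 6 of the 7 plasma samples, and TS3 lay below its level of 36.0 counts. The members ranked differently within a sample, with miR-192 at ranks 21 to 42 and miR-194 at ranks 21 to 121.

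**Figure D2:**
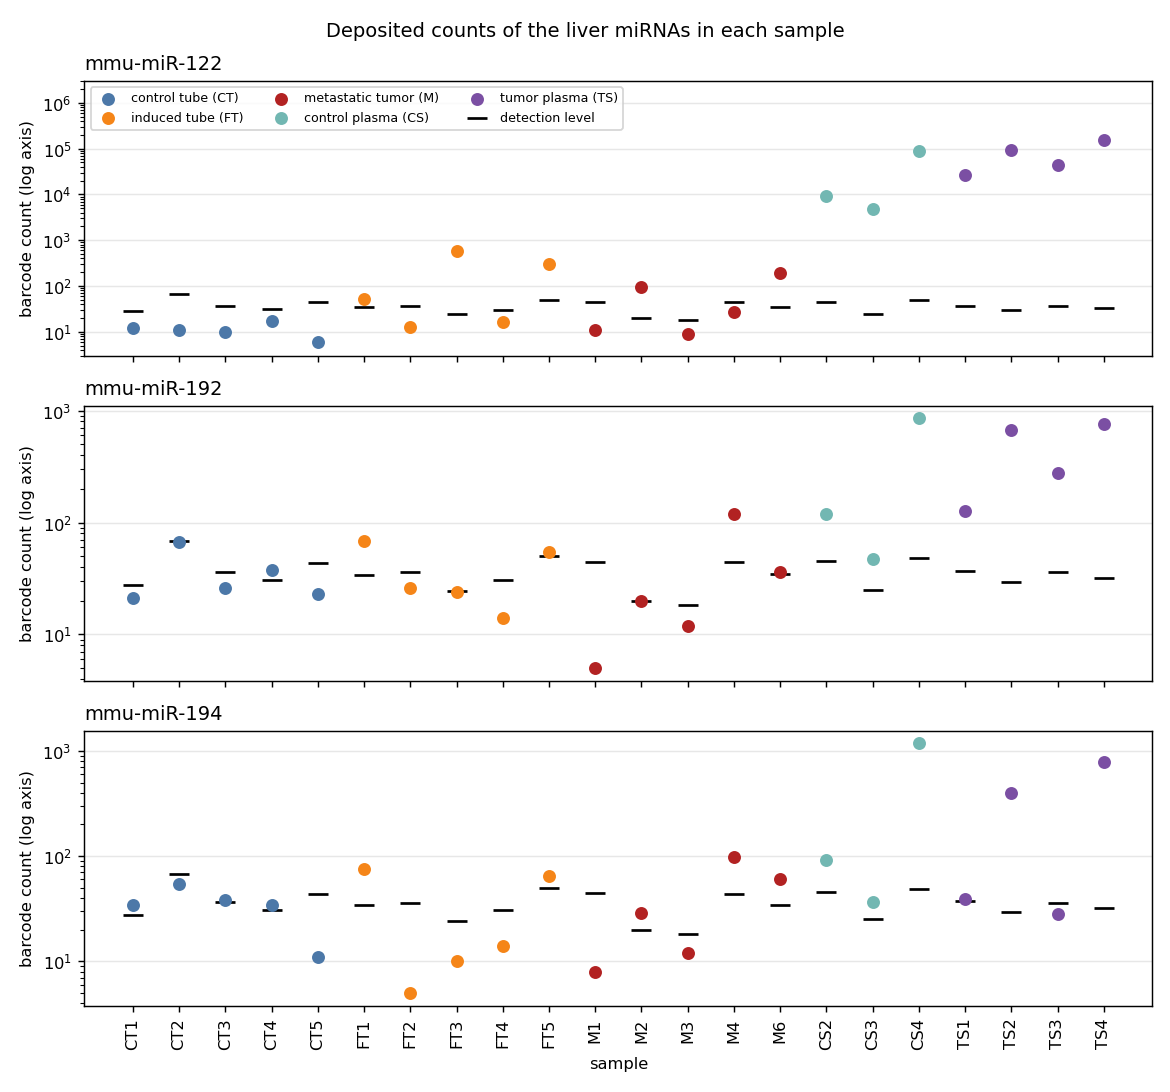
Deposited barcode counts (vertical axis, log scale) of mmu-miR-122, mmu-miR-192 and mmu-miR-194 in each of the 22 samples (horizontal axis), colored by group, with a black bar at the detection level of each sample. miR-122 rises above the bar in all 7 plasma samples and, in tissue, in FT1, FT3, FT5, M2 and M6, while miR-192 and miR-194 stay near the bar in most tissue samples.

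miR-122 was not detected in the control tubes. Its counts were 12, 11, 10, 17 and 6 in CT1 to CT5, and none of the 5 was above the detection level, which lay between 27.8 and 67.7 counts there. miR-192 had 21, 67, 26, 38 and 23 counts and was detected in CT4 alone. miR-194 had 34, 54, 38, 34 and 11 counts and was detected in CT1, CT3 and CT4. In CT, normalized counts were thus 12.1 ± 2.91 for miR-122, 37.0 ± 13.7 for miR-192 and 34.4 ± 7.07 for miR-194 (SD, n = 5), close to what the negative controls give. These are bulk samples, in which fewer cells of a type and less RNA per cell cannot be told apart.

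Plasma and tube of the same mouse could be compared in 7 mice, 3 of them uninduced. All members took a larger share of the miRNA counts in plasma than in tube in 7 of 7 mice (exact permutation test over sign changes, two-sided p = 0.0156 for each, the smallest that 7 mice can give). The tube count was above detection in 2 of the 7 mice for miR-122, in 2 for miR-192 and in 3 for miR-194. A larger share in all 7 mice was found for 4.95% of the miRNAs. With the mouse as a block and total miRNA counts as library size, edgeR called the 3 members higher in plasma, against 3.71% of all miRNAs. miR-122 had the largest difference of the 566 miRNAs, 11.32 on the log2 scale (SE 1.18, adjusted p = 1.3e-18). miR-192 ranked 5 with 4.10 (SE 0.697, adjusted p = 2.18e-07) and miR-194 ranked 7 with 3.74 (SE 0.690, adjusted p = 2.06e-06). Ranks 2 to 4 were held by miR-451, miR-144 and miR-486, all miRNAs of red blood cells, with 6.90, 5.79 and 5.76. The miRNA between miR-192 and miR-194, named after its value was seen, was miR-450b-5p with 3.87. A share falls when another miRNA rises, and with miR-122 left out of the total, a setting added after seeing the data, the differences of miR-192 and miR-194 were 4.85 and 4.49.

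**Figure D3:**
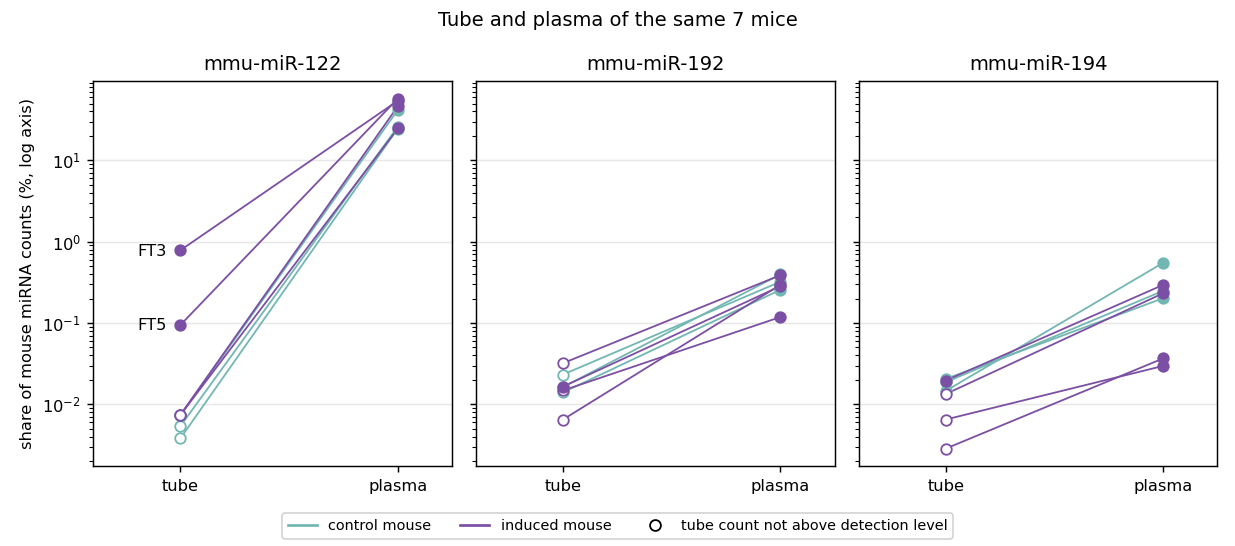
Share of mouse miRNA counts (%, log axis) of each member in the tube and in the plasma of the same mouse, with a line for each of the 7 mice, colored by whether the mouse was induced. Open circles are tube counts not above the detection level. All lines rise, and for miR-122 the lines of FT3 and FT5 start far above the other 5.

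The distance between tube and plasma was not alike in all mice for miR-122. In CT2, CT3, CT4, FT2 and FT4 the tube count was below detection. With the detection level put in place of those tube counts, the plasma share was at least 1049, 1329, 3150, 1199 and 3279 times that of the tube in these mice. In FT3 the tube share was 0.784% and the plasma share 54.2%, a 69.1-fold difference. In FT5 the tube share was 0.0945% and the plasma share 57.6%, a 610-fold difference. The mice of FT3 and FT5 therefore had both the highest miR-122 shares among the 7 tubes and the highest among the 7 plasma samples. For miR-192 and miR-194 an exact ratio could be read only where both counts were above detection. For miR-192 it was 24.3 in CT4 and 17.2 in FT5, and with the detection level in place of the tube count it was at least 5.76 to 20.9 in the other 5 mice. For miR-194 it was 9.84 in CT3 and 37.6 in CT4, with FT5 between them, and at least 10.6, 1.78 and 7.18 in CT2, FT2 and FT3. In FT4 and its plasma TS3 miR-194 was below detection in both.

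Induced tubes differed from control tubes in miR-122. Its counts were 53, 13, 587, 16 and 309 in FT1 to FT5, with FT1, FT3 and FT5 above the detection level. Normalized counts were 19.6, 25.1, 1208, 31.1 and 168, against 7.54 to 14.8 in CT. The groups did not overlap on this scale, but the counts of FT2 and FT4 were below detection and within the CT range of 6 to 17 counts, and their place above CT rests on the scaling (geometric means of 303 and 301, against 237 to 853 in CT). As shares of all miRNA counts, FT1 (0.00886%), FT2 (0.00741%) and FT4 (0.00742%) lay within the CT range of 0.00381% to 0.00886%. FT1 was the deepest library, with 598321 counts on mouse miRNAs. FT3 stood far above the other tubes and FT5 came next. The mean was 290 ± 517 in FT and 12.1 ± 2.91 in CT (SD, n = 5), a log2 fold change of 4.59 (SE 0.955, edgeR adjusted p = 0.0439). The exact permutation test gave a two-sided p = 0.00794, the smallest that 5 samples against 5 allow. It rests in part on the scaling and on the undetected counts of FT2 and FT4. miR-122 was the only miRNA that edgeR called between FT and CT, which makes 0.177% of the 566 higher. Groups that did not overlap, with FT higher, were found for 0.53% of the miRNAs, namely miR-122, miR-146a and miR-486, the last a miRNA of red blood cells. The call did not hold when FT3 was left out (2.38, adjusted p = 0.0671), nor when any of the CT samples was (4.44 to 4.66, adjusted p = 0.0971 to 0.152). Without both FT3 and FT5 the log2 fold change was 1.06 (adjusted p = 0.364), a setting added after seeing the data.

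miR-192 and miR-194 did not follow miR-122 in the induced tubes. miR-192 had 68, 26, 24, 14 and 54 counts in FT1 to FT5 and was detected in FT1 and FT5. Its normalized count was 36.3 ± 12.5 in FT against 37.0 ± 13.7 in CT (SD, n = 5), a log2 fold change of -0.04 (SE 0.411, edgeR adjusted p = 0.977). The 95% interval of that difference ran from -0.84 to 0.77. miR-194 had 75, 5, 10, 14 and 64 counts in FT1 to FT5 and was detected in FT1 and FT5. Its normalized count was 24.0 ± 9.46 in FT against 34.4 ± 7.07 in CT (SD, n = 5), a log2 fold change of -0.48 (SE 0.408, edgeR adjusted p = 0.710), with an interval from -1.28 to 0.32. In both, the groups overlapped and most counts were near background, so small differences were not detectable at this depth.

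**Figure D4:**
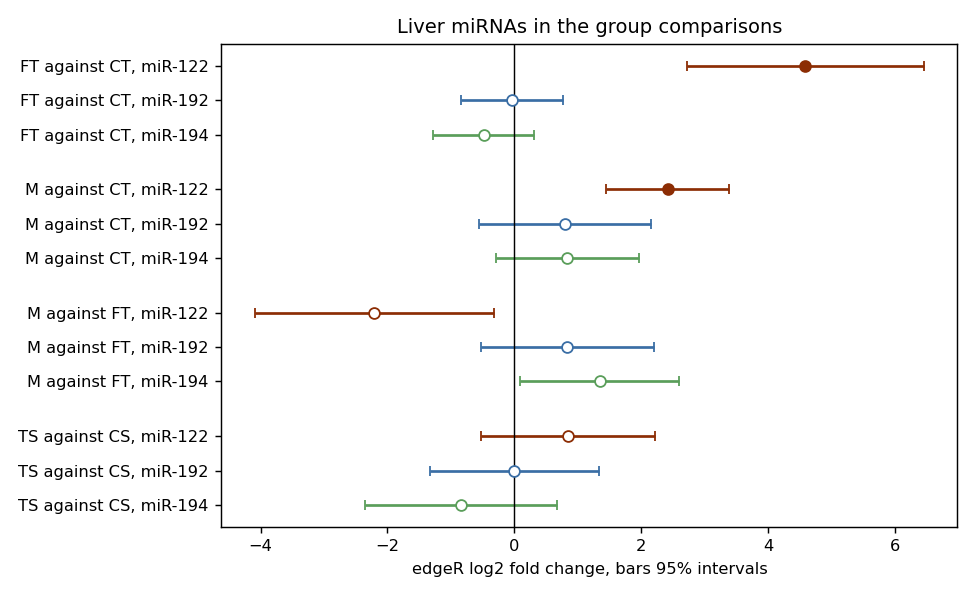
edgeR log2 fold changes (horizontal axis) of the members in the 4 group comparisons (rows), with bars for the approximate 95% intervals (1.96 SE to either side). Filled points passed the threshold and open points did not. miR-122 lies at 4.59 in FT and 2.42 in M against CT, and every bar of miR-192 spans 0.

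In the metastatic tumors miR-122 was higher than in the control tubes as well, and all M lay below FT5. Its counts were 11, 95, 9, 27 and 189 in M1, M2, M3, M4 and M6, with M2 and M6 above the detection level. Normalized counts were 22.4, 83.6, 21.0, 56.0 and 127, all above the highest CT sample at 14.8. M1, M3 and M4 were below detection, and the 11 and 9 counts of M1 and M3 lie within the CT counts. Their place above CT thus appears only once counts are scaled to the library (geometric means of 288 and 251). As shares of all miRNA counts, which do not use the geometric means, M1 (0.0107%) and M3 (0.0128%) also lay above the CT maximum of 0.00886%. The shares of all M ran from 0.0107% to 0.0603%. The mean was 62.0 ± 44.7 (SD, n = 5), a log2 fold change of 2.42 against CT (SE 0.496, edgeR adjusted p = 0.00353). The exact permutation test gave a two-sided p = 0.00794, with the same limit. edgeR called 8.66% of all miRNAs higher in M than in CT, and the groups did not overlap, with M higher, for 6.54%. M2 and M6, both Brca1 -/+, were the tumors with detected miR-122, and M6 was the ovarian tumor. They were also the deepest tumor libraries, with 253094 and 313180 counts on mouse miRNAs against 70164 to 123139 in M1, M3 and M4. Genotype and depth cannot be told apart here. With each sample left out in turn the log2 fold change stayed between 1.98 and 2.63 and past the threshold.

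miR-192 and miR-194 were high in 1 tumor, M4. miR-192 had 5, 20, 12, 118 and 36 counts in M1, M2, M3, M4 and M6, with M2, M4 and M6 above the detection level. Its normalized count was 245 in M4 and between 10.2 and 28.0 in the other 4 tumors. miR-194 had 8, 29, 12, 98 and 60 counts, with the same 3 tumors above the level, and its normalized count was 203 in M4 and between 16.3 and 40.4 in the others. M4 was thus the highest of all 15 tissue samples for both. Its miR-122 count of 27 was below its detection level of 44.1. Against CT the log2 fold changes were 0.80 for miR-192 (SE 0.693, edgeR adjusted p = 0.437) and 0.84 for miR-194 (SE 0.573, edgeR adjusted p = 0.320), and without M4 they were -0.86 and -0.30. M4 also had 2060 counts of miR-375, a miRNA of islets and of other epithelia, which was 6.38 times the CT mean on the normalized scale and was 5 to 31 counts in the other tumors. The pancreatic miRNAs miR-216a, miR-216b and miR-217 were below detection in all 15 tissue samples. The part of other cell types in M4 was not tested.

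Between M and FT no member passed the threshold, which 1.94% of the 566 miRNAs did in either direction. The log2 fold change of M against FT was -2.21 for miR-122 (SE 0.961, edgeR adjusted p = 0.440), and it was 0.028 without FT3. It was 0.84 for miR-192 (SE 0.697, edgeR adjusted p = 0.997) and 1.34 for miR-194 (SE 0.640, edgeR adjusted p = 0.523). Without M4 these were -0.84 and 0.19.

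**Figure D5:**
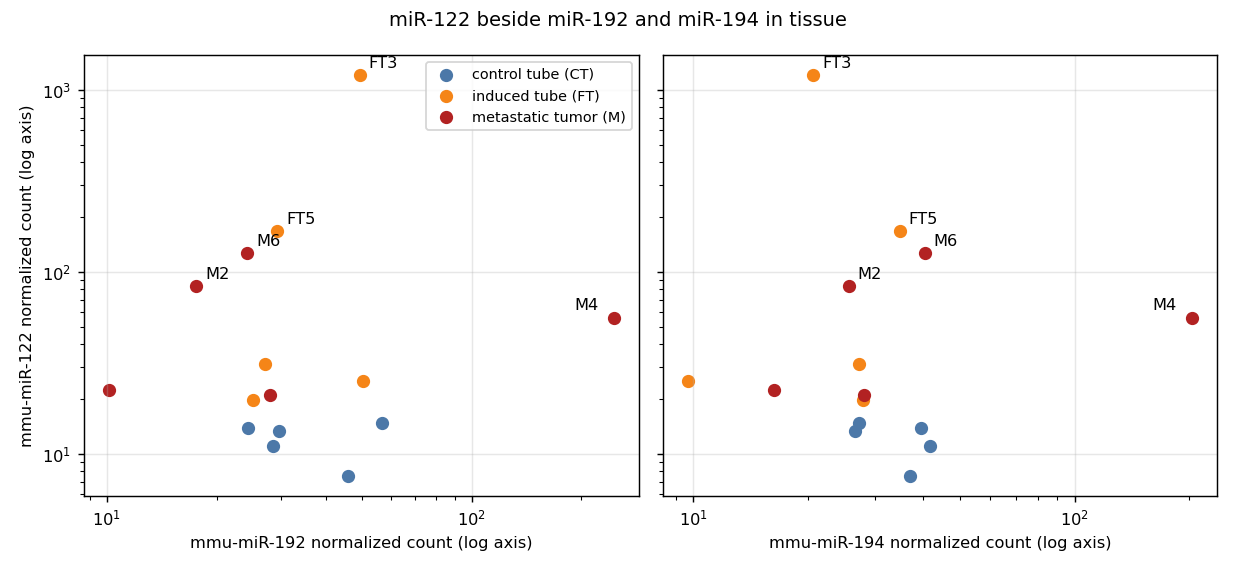
Normalized counts of miR-122 (vertical axis, log scale) against those of miR-192 (left) and miR-194 (right, log scales) in the 15 tissue samples, colored by group. FT3, FT5, M6 and M2 are high in miR-122 and within the range of the others in miR-192 and miR-194, and M4 is far to the right in both panels.

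The counts of the members were also set against each other within a sample. In plasma there were 76.5 to 208 counts of miR-122 for each count of miR-192. Among tissue samples with both miRNAs above detection there were 0.779 in FT1, 5.72 in FT5, 5.25 in M6 and 4.75 in M2, counts not corrected for background. In the other tissue samples at least 1 of the pair was below detection, and no ratio is read. The count of miR-192 that would go with the 587 miR-122 counts of FT3 at the plasma ratios is 2.82 to 7.68, which is below the FT3 detection level of 24.2. For the 309 counts of FT5 it is 1.48 to 4.04. The 24 counts of miR-192 and 10 of miR-194 in FT3 were themselves below detection, so a rise of that size in either could not have been seen.

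Blood and liver markers other than the members gave the following values in the tissue samples with miR-122. miR-451 had a normalized count of 2089 in FT3, 8.81 times the CT mean, and 223 in FT5, 0.942 times it. It was 831 in M2 and 1268 in M6, and it was 2120 in M3, where miR-122 was not detected with 9 counts. The count of miR-122 for each count of miR-451 was 0.578 in FT3 and 0.752 in FT5, against 7.13 and 16.2 in the plasma of these mice. The CT samples held 78 to 250 counts of miR-451 with no detected miR-122, and whole blood was not measured. These ratios therefore give no measure of blood in the tissue. miR-486, also of red blood cells, was 8.56 times the CT mean in FT3 and 1.47 times in FT5. The sum of the 4 erythrocyte miRNAs was 1.66% to 3.22% of miRNA counts in CT, 0.390% to 4.36% in FT and 0.750% to 7.43% in M. In tissue this sum was mostly miR-16, with 1.53% to 3.15% in CT, 0.299% to 3.51% in FT and 0.630% to 5.95% in M. miR-451 took 0.0576% to 0.340% in CT, 0.0393% to 1.36% in FT and 0.0617% to 1.30% in M. Of the marker miRNAs of erythrocytes (4), leukocytes (5), striated muscle (4) and pancreas (4), none was called between FT and CT. Over all miRNAs, 0.177% were called higher there. Between M and CT, edgeR called miR-486 (2.93) and the myeloid miR-223 (3.33) higher and the muscle miR-1 (-2.73) lower. Over all miRNAs, 8.66% were called higher and 8.13% lower there, so these calls are not read as particular to the lists. Between M and FT miR-223 alone was called (3.45), beside 1.94% of all miRNAs in either direction. The part of blood in the tissue values of miR-122 was not tested.

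Of 9 further miRNAs that hepatocytes express, none was called between FT and CT, with a median log2 fold change of 0.19 beside -0.02 over all 566 miRNAs. As 0.177% of all miRNAs were called higher there, the lack of calls is not particular to the 9. Several of the 9 are made in many tissues, and the tubes expressed them. In FT3, miR-148a was 0.906, miR-22 0.699, miR-365 1.20 and miR-378 1.11 times the CT mean on the normalized scale. miR-802, which is more restricted to liver, was below detection in all 15 tissue samples, with 6 to 29 counts. Between M and CT, miR-378 (1.93, edgeR adjusted p = 0.00667) and miR-22 (2.003, edgeR adjusted p = 0.00356) were higher in M. miR-148a (-2.02, edgeR adjusted p = 0.0254) and miR-101a (-1.71, edgeR adjusted p = 0.0103) were lower, beside 8.66% of all miRNAs called higher and 8.13% called lower. miR-101a was detected in none of the M and in 2 of the CT. The other 5 did not pass, and the median was -0.13 beside 0.02 over all miRNAs. None of the 9 passed between M and FT or between TS and CS, where 1.94% and 0.0% of all miRNAs passed.

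In plasma against tube of the same mice, 2 of these 9 were called higher and none lower, beside 3.71% of all miRNAs called higher and 5.65% lower, with a median of 0.72 beside 0.06 over all miRNAs. They were miR-802 with a log2 difference of 3.03 (edgeR adjusted p = 4.05e-05) and miR-193 with 2.08 (edgeR adjusted p = 0.0126). Neither was above detection in any tube, and miR-802 was above it in 3 of 7 plasma samples and miR-193 in 1, so no size of change is read from them. The plasma counts of miR-802 were 26, 11 and 74 in CS2 to CS4 and 16, 155, 26 and 149 in TS1 to TS4, above detection in CS4, TS2 and TS4. These are the samples with the most counts of miR-122 and also those with the most miRNA counts in all (214285, 171646 and 269005). Of the other marker lists, 3 of 4 erythrocyte miRNAs, miR-223 of 5 leukocyte miRNAs and miR-206 of 4 muscle miRNAs were called higher, and miR-375 of 4 pancreas miRNAs lower. miR-148a, miR-22, miR-378 and miR-365, which were detected in 14 or 15 of the 15 tissue samples, were not called.

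Between tumor and control plasma, no member passed the threshold and neither did any of the 566 miRNAs (0.0% in either direction by edgeR, 131 at an unadjusted p under 0.05). The normalized count of miR-122 was 63402 ± 21357 in TS (SD, n = 4) and 35227 ± 8374 in CS (SD, n = 3), a log2 fold change of 0.85 (SE 0.702, edgeR adjusted p = 0.385; exact permutation test, two-sided p = 0.114). TS2, TS3 and TS4 were above all CS and TS1 was within them. The interval of the difference ran from -0.53 to 2.22, and 3 against 4 samples cannot give an exact p below 0.0286. miR-192 was 375 ± 159 in TS and 375 ± 68.9 in CS (log2 fold change -0.00, SE 0.678, edgeR adjusted p = 0.998), with an interval from -1.33 to 1.33. miR-194 was 212 ± 196 in TS and 378 ± 188 in CS (log2 fold change -0.84, SE 0.772, edgeR adjusted p = 0.437), with 54.9 in TS1 and 35.5 in TS3 beside 336 and 422 in TS2 and TS4. Over all 566 miRNAs the median log2 fold change was -1.10 in this scaling and -0.05 with TMM normalization. A plasma sample had 52 to 128 miRNAs above detection, so most values behind this median lie near background. When a minimum mean count of 20 was required the median was -0.21, and with negative controls subtracted it was -0.45. The -1.10 is therefore not read as a shift of detected miRNAs, but the values of TS against CS still depend on the scaling. With TMM normalization miR-192 was 0.89 and miR-194 0.12, while the value of miR-122 stayed positive in 18 alternatives (0.14 to 1.74). The summed erythrocyte miRNAs took 38.7%, 27.2% and 19.2% of miRNA counts in CS2 to CS4 and 44.4%, 13.7%, 14.0% and 5.63% in TS1 to TS4, and their part in the miR-122 shares was not tested.

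A ratio of members within a sample does not depend on the scaling. The ratio of miR-122 to miR-192 was 76.5, 102 and 105 in CS2 to CS4 and 208, 140, 157 and 203 in TS1 to TS4, so the groups did not overlap. These counts were not corrected for background. The negative controls averaged 17.25 counts in CS2 and 10.5 in CS3, beside 118 and 47 counts of miR-192. The mean log2 ratio was 6.55 ± 0.252 in CS and 7.45 ± 0.282 in TS, a 1.87-fold difference (exact permutation test over 35 splits, two-sided p = 0.0286, the smallest possible here). This ratio was chosen after its values were seen. Of the other 565 miRNAs set against miR-192 in the same way, 0.531% did not overlap with TS higher, and these were miR-122, miR-27a and let-7b. By edgeR the median log2 fold change of TS against CS was -1.10 and that of miR-192 was -0.00. Most of these miRNAs were not detected in a plasma sample, and the median was -0.21 when a minimum mean count of 20 was required. The lower median beside miR-192 is therefore not read as a shift of detected miRNAs, and 0.531% is not read as a rate for them. The ratio of miR-122 to miR-194 was 75.9 to 129 in CS and 196 to 1562 in TS, and that of miR-192 to miR-194 was 0.723 to 1.30 in CS and 0.966 to 9.96 in TS. The last overlapped, as TS4 lay within the CS values, and the highest of each rests on the 28 counts of miR-194 in TS3, which are below detection by the hybridization controls and above the level of the negative ligation controls (10.7).

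Whether induction moved a member differently in plasma than in the tube was tested in a fit over CT, FT, CS and TS. Tube and plasma of the same 7 mice entered this fit as separate samples, so its SE and p-values ignore the shared mice. In 20 alternatives, which included a fit with the mouse as a random block, no member passed the threshold. The difference of the log2 fold changes, plasma minus tube, was -3.73 for miR-122 (SE 1.38, edgeR adjusted p = 0.303, unadjusted p = 0.0112). It was 0.03 for miR-192 (SE 0.712, edgeR adjusted p = 0.975) and -0.34 for miR-194 (SE 0.867, edgeR adjusted p = 0.823). No miRNA passed this test by edgeR, and 81 had an unadjusted p under 0.05.

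The miRNAs most like each member were ranked by Spearman's rho of normalized counts among miRNAs whose mean count reached 50, as a description with no test. The points share the scaling of each sample. Over the 15 tissue samples, miR-122 was nearest to miR-486 (0.61), miR-146a (0.56) and miR-21 (0.54), out of 140 miRNAs. Its rho with miR-192 was -0.07 and with miR-194 -0.20. miR-192 was nearest to miR-1966 (0.70), miR-429 (0.67), a miRNA of epithelium, and miR-1965 (0.61), and its rho with miR-194 was 0.05. miR-194 was nearest to miR-340-5p (0.45), miR-19b (0.41) and miR-375 (0.41). In tissue, where most counts of the members were near background, no pair of members went together.

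Over the 7 plasma samples the members had higher rho with each other than in tissue, but other miRNAs stood nearer to each of them. miR-192 and miR-194 had a rho of 0.79, miR-122 and miR-192 of 0.61, and miR-122 and miR-194 of 0.36. By rho with miR-122, miR-192 ranked 8 and miR-194 ranked 18. By rho with miR-192, miR-194 ranked 7 and miR-122 ranked 14. By rho with miR-194, miR-192 ranked 6 and miR-122 ranked 24. miR-122 was nearest to miR-27a (0.89), and then to miR-126-3p, of endothelium, and miR-22 (0.82 each), among 94 miRNAs. miR-192 was nearest to miR-29a, miR-29c and miR-365 (0.93 each), and miR-194 to miR-151-5p (1.0), miR-99a (1.0) and miR-23b (0.96).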

How the data were processed

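Mouse miRNAs were measured with the NanoString nCounter miRNA assay (v1.5) in 22 samples. The authors deposited whole-number barcode counts for 626 probes per sample, of which 566 mouse miRNAs were tested, and 0 columns were unmatched. Per the labels, total RNA was extracted with Norgen kits. The authors normalized in nSolver 3.0 to the most abundant miRNAs, and the deposited counts do not carry that step. It was repeated here with the geometric mean of the 100 (tissue) or 30 (plasma) most abundant miRNAs of each sample as library size, and total miRNA counts for plasma against tube.

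Comparisons used edgeR 4.0.16 in R 4.3.3 (glmQLFit, glmQLFTest, only the groups compared) and, for members, exact permutation tests of mean log2 normalized counts (252 splits of 5 against 5, 35 of 4 against 3). Some M shared a mouse with an FT, and were treated as separate samples. On simulated data with 200 of 566 miRNAs changed 8-fold, edgeR recovered 99.0% in FT against CT, 99.5% in M against CT, 95.0% in M against FT, 89.5% in TS against CS, 100.0% in plasma against tube and 79.0% in the test of plasma minus tube. The simulation had no background floor, so counts near background moved 8-fold as well. These shares therefore do not give the power for miRNAs near background, or where few miRNAs change.

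Named miRNAs are the members, 5 marker lists from general knowledge (other hepatocyte, pancreas, striated muscle, erythrocyte, leukocyte) and the 3 nearest to each member. The members and lists were chosen with earlier results of these data known. The methods' two-tailed t-test, DESeq2 1.42.0 and limma 3.58.1 were alternatives. Tubes and plasma of the same mice were paired from the study's sample table. Groups in the other comparisons share only sample numbers, whose deviations correlated between -0.41 and 0.32, and were not paired. Python 3.11.15 with scipy 1.17.1 was used for permutation tests. The other alleles of these mice are not reported here.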

Additional observations from a re-analysis of the deposited data

Results flagged for a closer look

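In 12 sets of 4 or 5 samples of a member, the sample at either end was compared with its nearest neighbour. On the linear scale of normalized counts, 3 samples stood apart by more than Dixon's 95% critical value. That value is exceeded in about 1 of 20 sets of normally distributed values. Its rate for skewed counts such as these was not tested, nor were the counts compared in this way on the log scale. In FT, the normalized count of miR-122 was 1208 in FT3, and the next was 168 in FT5. In M, the normalized count of miR-192 was 245 in M4 and that of miR-194 was 203 in M4, while the other 4 tumors lay at 28.0 or below and 40.4 or below. FT3 also had the lowest Actb count of the tissue samples (328) and 8.81 times the CT mean of miR-451. What sets FT3 and M4 apart was not tested.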

How the results depend on the processing

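The higher shares in plasma of all 3 members held in all 13 alternatives (miR-122 8.25 to 13.70, miR-192 3.88 to 5.16, miR-194 3.49 to 5.12). Higher miR-122 in M than in CT held in 20 of 21 and was not past the threshold in the methods' t-test (2.05, adjusted p = 0.101). Higher miR-122 in FT kept its direction in all 22 alternatives but the threshold in 8. It was lost with miR-425 scaling (4.97), quantile normalization (2.86), limma with a pseudocount of 1 (2.67) or 10 (2.20), the methods' t-test (2.75), a minimum mean count of 20 (4.58) and without both FT3 and FT5 (1.06), and with samples left out it ranged from 2.38 to 4.89. The cause of each was not tested. Depth limits miR-192 and miR-194 in tissue, where they were above detection in 6 and 8 of the 15 samples.

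Calls between FT and CT (1 in the report) were 2 with TMM or DESeq2, 0 with miR-425, quantile, limma at either pseudocount, the methods' t-test or the minimum count, 4 with negative controls subtracted, 42 (32 higher, 10 lower) without both FT3 and FT5, and 0 to 9 with samples left out. M against CT gave 151 with TMM, 45 with the t-test, 158 with negative controls subtracted and 60 to 101 with samples left out, against 95. M against FT gave 2 with miR-425, 5 with quantile, 27 with DESeq2, 5 and 7 with limma at pseudocounts of 1 and 10, 0 with the t-test, 7 with the minimum count, 3 without both FT3 and FT5, and 4 to 25 with samples left out, against 11. TS against CS gave 0 to 173 with samples left out, the 173 without CS4. Plasma against tube gave 260 with the top 30 and 218 with the top 100 miRNAs in both, 207 with the total without miR-122 and 37 to 92 with mice left out, against 53.

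The sign of values near 0 turned. miR-192 in FT against CT was 0.069 with TMM, 0.59 with miR-425, 0.25 with quantile, 0.21 with negative controls subtracted, 0.14 with a fixed set of top miRNAs (added after seeing the data) and -0.18 to 0.14 with samples left out. In M against CT it was -0.14 and -0.0071 with limma at pseudocounts of 1 and 10, -0.17 with the t-test and -0.86 to 1.07 with samples left out. In M against FT it was -0.13 with quantile, -0.13 and -0.00083 with limma, -0.15 with the t-test and -0.84 to 1.11 with samples left out. In TS against CS it was 0.89 with TMM, 0.79 with miR-425, 0.095 with quantile, 0.082 with negative controls subtracted, 0.34 with the fixed set and -0.26 to 0.23 with samples left out. miR-194 was 0.12 with TMM and 0.22 with miR-425 in TS against CS, and -0.30 to 1.07 in M against CT with samples left out. miR-122 in M against FT was 1.33 without both FT3 and FT5 and -2.65 to 0.028 with samples left out. In the test of plasma minus tube, miR-192 was -0.11 with limma and the mouse as a random block and -0.23 to 0.26 with samples left out, and miR-194 was -0.92 to 0.14. DESeq2 gave no adjusted p for miR-192 in M against CT or M against FT. With the level of the negative ligation controls, miR-122 was detected in 4 FT and 4 M, miR-192 in 1 CT, 4 FT and 4 M, and miR-194 in 1 CT, 3 FT and 4 M, and all members in all 7 plasma samples, miR-194 in TS3 included.

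Sample numbers as a replicate block, which do not pair mice here (each comparison had 1 sample that correlated best with its own number), gave 0 calls in FT against CT, 1 in M against FT and 226 in TS against CS. Under the block miR-122 was 2.53 in FT against CT (adjusted p = 0.128) and 1.04 in TS against CS (adjusted p = 0.0289), and miR-192 was -0.28 in M against FT and 0.22 in TS against CS. Without the mouse as a replicate block, plasma against tube gave 84 calls.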
